A study of Mus musculus with 4 samples.

Results

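The genes described here are the synaptotagmins, syntaxins and other genes of SNARE-driven exocytosis, the fusion of a vesicle with the cell surface. They were taken by name from the table of gene counts: Syt, Sytl, Stx, Stxbp, Vamp, Unc13, Rims, Cplx and Rab3 genes, the synapsins Syn1 to Syn3, and Snap23, Snap25, Snap29 and Snap47. The rule takes 97 of 56350 rows, which hold 93 symbols, since 4 rows on alternative scaffolds repeat the symbol of another member. It also takes 12 genes from Rab30 to Rab39, which share the start of the name with Rab3 and are other Rab GTPases. They have a paragraph of their own, but stay in the counts of members and classes below unless stated. The other 85 rows are the exocytosis genes proper.

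The cells were EO771, a mouse mammary carcinoma line, and their total RNA was sequenced after 48 h of BML-210 (1.0 µM) or of no inhibitor. BML-210 is an inhibitor of histone deacetylases, the enzymes that take acetyl groups off histones. The labels call the 2 control libraries untreated, their titles call them WT, and the treatment protocol speaks of vehicle. There are 2 libraries in each group, with 13167893 to 16534667 counted reads. Nothing says whether the libraries of a group came from separate cultures, so p-values measure the spread between these libraries, which may be technical. The library codes carry the letter D where the label says untreated and V where it says BML-210, although vehicle also starts with V. The codes name no group themselves, so each direction below is only as good as the labels. If the labels were exchanged, every direction would reverse. A positive fold change means a higher level in the BML-210 libraries.

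In exocytosis a VAMP protein on the vesicle pairs with a syntaxin and a SNAP protein on the target membrane, and the resulting SNARE bundle pulls the membranes together. Munc18 proteins hold and guide the syntaxin, Munc13 proteins (Unc13 genes) and the Rim scaffolds prepare the vesicle, complexins clamp the bundle and synaptotagmins start fusion when calcium rises. Rab3 GTPases bring vesicles to the membrane, and synapsins tie synaptic vesicles together. Neurons and endocrine cells use one set of these genes (Syt1, Stx1a, Snap25, Vamp2, Unc13a), and every cell uses other members for traffic between the Golgi, endosomes, lysosomes and surface. From such textbook knowledge 35 rows were put in a neuronal class and 33 in a ubiquitous class. The other 29 are restricted to other tissues or were not classed with certainty.

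The cells were checked against markers. Vimentin (Vim) lay at 1645 to 1721 CPM (counts scaled to library size) over the 4 libraries while the epithelial genes Krt18 and Epcam, at 0.227 CPM or less, were close to 0. Keratin 8 (Krt8) fell from 43.6 and 49.2 CPM in untreated to 28.3 and 33.0 CPM in BML-210 libraries (log2 fold change -0.59, edgeR adjusted p = 3.51e-09). Of 10 neuronal markers only Tubb3 had enough counts to be tested, and it rose (log2 fold change 0.40, edgeR adjusted p = 0.00762). Their summed level was 11.5 to 16.4 CPM in untreated and 17.1 to 19.0 CPM in BML-210 libraries, most of it Tubb3. None of 6 neuroendocrine markers could be tested, and Chga was at 0 in all 4 libraries, with a sum of 0.947 to 1.22 CPM in untreated and 0.984 to 1.86 CPM in BML-210 libraries. The 9 macrophage markers summed to 5.83 to 7.79 CPM in untreated and 3.56 to 4.42 CPM in BML-210 libraries, with C1qc at 0. Of the 3 that could be tested, Adgre1 was lower (log2 fold change -2.98, edgeR adjusted p = 3.83e-05) and 2 were not called. Of 6 mast cell and granulocyte markers, which summed to 1.77 to 2.19 CPM in untreated and 0.714 to 1.21 CPM in BML-210 libraries, Cpa3, Mcpt4 and S100a9 were at 0. The 3 endothelial markers summed to 6.12 to 7.49 CPM in untreated and 7.56 to 8.55 CPM in BML-210 libraries. The part of these markers in the results below was not tested. In bulk RNA, fewer cells that express a gene and less of its RNA per cell cannot be told apart.

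Which exocytosis genes differ between cells with and without the inhibitor was asked with edgeR's quasi-likelihood test over all 14455 genes with enough counts, adjusted by Benjamini-Hochberg and called below 0.05. Of the 97 members, 47 could be tested, and 27 were called, 20 lower and 7 higher. In all, 46.4% of tested genes were called, 23.5% lower and 22.9% higher, against 57.4%, 42.6% and 14.9% of the tested members. Calls depended on level: of the 39 members with a mean of at least 5 CPM 56.4% were called, and of all genes above that level 56.1%. The shares lower still stood apart in size there, at 43.6% of members against 27.2% of genes, and the shares higher at 12.8% against 29%. Changes were small, with a median absolute log2 fold change of 0.23 among tested members and 0.25 among all tested genes. Only 5 members changed 2-fold or more and were called (Rab37, Syt17 and Unc13b lower, Unc13d and Sytl3 higher), and 6.68% of all tested genes did so.

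**Figure D1:**
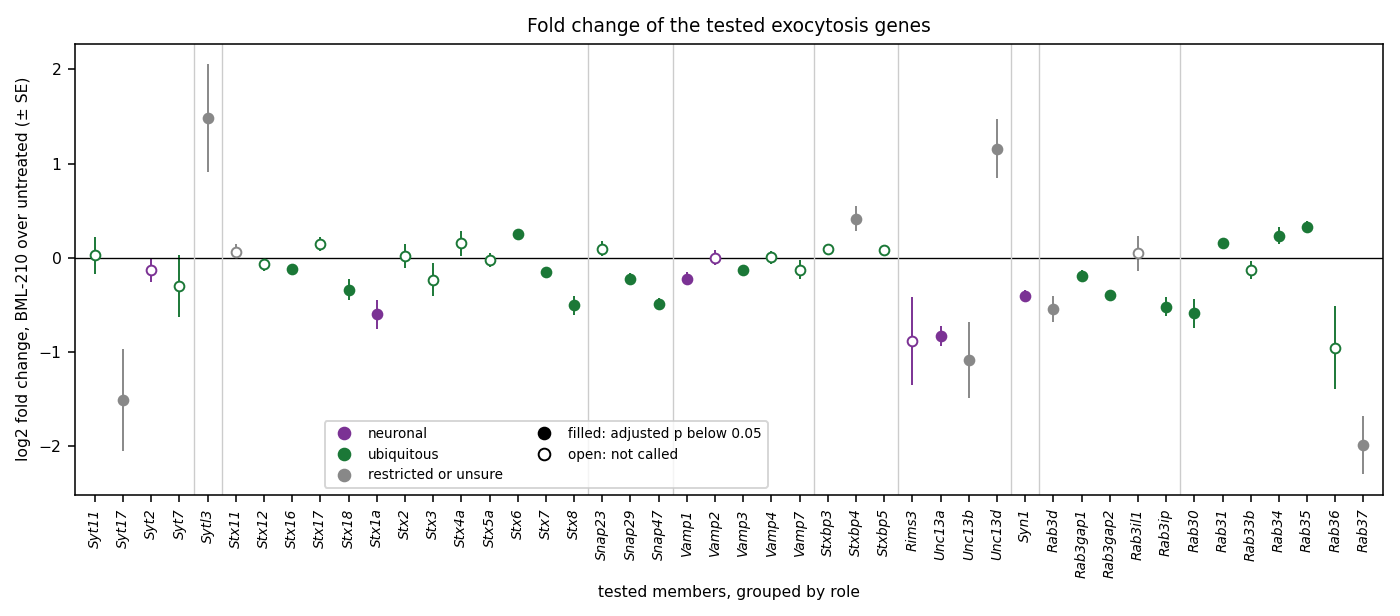
Log2 fold change of BML-210 over untreated, with its standard error (SE), for 46 of the 47 tested members, grouped by role from synaptotagmins on the left to Rab30 to Rab39 on the right. Colours give the tissue class and filled points passed an adjusted p of 0.05; of 26 filled points 19 lie below 0, and Rab37 at -1.99 and Sytl3 at 1.48 are the extremes.

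Where the groups did not overlap, that is where both libraries of one lay beyond both of the other, BML-210 was below for 24 and above for 12 of the 47 tested members. Over all tested genes 71.3% did not overlap, 36.1% below and 35.2% above. The lead of falls over rises was found under all 13 alternative settings run over all genes, with 65.0% to 78.3% of called members lower, against 47.7% to 56.0% of all called genes. The number called was less firm. With DESeq2 it was 14 of 47 (10 lower, 4 higher), or 29.8% against 30.0% of all genes, and without BML-210 replicate 1 it was also 14 (10 lower, 4 higher), or 29.8% against 37.0%. Without untreated replicate 1 it was 20, of which 13 were lower.

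Of the 35 neuronal rows, 27 had too few counts to be tested, 21 of them with at most 3 counts in each library, among which 5 had none. A count of 3 equals 0.183 to 0.227 CPM in these libraries. The SNARE gene Snap25 had 1, 0, 1 and 1 counts (untreated replicates 1 and 2, then BML-210 replicates 1 and 2), and the fast calcium sensor Syt1 had 2, 0, 1 and 3. The complexins Cplx1, Cplx2, Cplx3 and Cplx4, the scaffolds Rims1, Rims2 and Rims4 and the neuronal GTPases Rab3a, Rab3b and Rab3c had at most 4 counts in any library. Stx1a and Vamp2, the synaptic partners of Snap25, were expressed, while Snap25 itself stayed at 1 read or none. Of the 33 ubiquitous rows 30 were tested.

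The 8 neuronal members that could be tested were 5 lower, 0 higher and 3 not called, with a median log2 fold change of -0.32. No neuronal member was higher at an unadjusted p under 0.05 either, or in DESeq2 or limma-voom. Of the 30 tested ubiquitous members 11 were lower, 4 higher and 15 not called, with a median of -0.12. The shares lower were 62.5% of neuronal and 36.7% of ubiquitous members, against 23.5% of all tested genes. The shares higher were 0% and 13.3%, against 22.9%. Without the Rab30 to Rab39 rows, none of which is in the neuronal class, 24 ubiquitous members were tested. Of these 10 were lower and 1 higher, with a median of -0.12. Among the 9 tested members of the remaining class 4 were lower and 3 higher, with a median of 0.05, and the median of all tested genes was -0.00248. The difference between neuronal and ubiquitous members was not tested, and the neuronal median rests on 8 genes of very different level. In DESeq2, and also without BML-210 replicate 1, 3 neuronal and 5 ubiquitous members were lower, and without untreated replicate 1 it was 5 and 6.

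The promoters of 4 neuronal members that were called lower are shown. Each window is RefSeq's, from 250 bases before to 50 after the annotated start, in build GRCm38.p6 (mm10), read 5′ to 3′ on the gene's strand. Capitals mark matches on either strand to the E-box CACGTG, the CCAAT box CCAAT, the GC box GGGCGG, the CRE half-site TGACG and TTCAGCA, the left part of the element RE1 that the neuronal repressor REST binds. Matches may share letters.
Unc13a (chr8:71671708-71672007, minus strand): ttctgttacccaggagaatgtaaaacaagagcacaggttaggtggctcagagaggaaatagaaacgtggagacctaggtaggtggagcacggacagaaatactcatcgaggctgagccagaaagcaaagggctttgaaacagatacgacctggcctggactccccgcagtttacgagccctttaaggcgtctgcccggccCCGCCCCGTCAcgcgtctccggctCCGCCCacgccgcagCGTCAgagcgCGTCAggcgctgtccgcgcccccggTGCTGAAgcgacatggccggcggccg
Stx1a (chr5:135023232-135023531, plus strand): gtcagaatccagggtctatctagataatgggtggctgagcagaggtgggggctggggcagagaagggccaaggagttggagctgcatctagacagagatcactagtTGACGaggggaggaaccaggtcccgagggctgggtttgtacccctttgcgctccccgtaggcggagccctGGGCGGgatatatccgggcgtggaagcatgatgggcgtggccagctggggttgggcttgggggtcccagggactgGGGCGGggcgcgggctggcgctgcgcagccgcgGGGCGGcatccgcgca
Syn1 (chrX:20920869-20921168, minus strand): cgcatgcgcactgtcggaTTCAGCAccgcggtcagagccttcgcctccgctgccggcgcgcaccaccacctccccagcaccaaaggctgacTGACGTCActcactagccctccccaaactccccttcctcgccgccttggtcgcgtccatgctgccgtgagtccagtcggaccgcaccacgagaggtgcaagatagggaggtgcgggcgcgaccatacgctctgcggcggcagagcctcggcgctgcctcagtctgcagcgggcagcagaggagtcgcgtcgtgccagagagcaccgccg
Vamp1 (chr6:125215331-125215630, plus strand): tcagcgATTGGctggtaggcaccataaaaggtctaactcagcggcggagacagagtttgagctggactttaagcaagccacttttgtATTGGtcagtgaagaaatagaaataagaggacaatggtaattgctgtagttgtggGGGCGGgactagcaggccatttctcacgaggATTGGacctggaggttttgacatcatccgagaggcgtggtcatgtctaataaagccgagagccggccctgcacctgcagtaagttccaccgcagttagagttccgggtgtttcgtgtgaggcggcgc

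Of 93 member symbols 69 had an entry in that table, and the first window listed for a gene was counted. A GC box was present in 12 of 15 members that fell, in 13 of 16 that were tested and not called, and in 35.9% of all 27025 genes of the table. A CRE half-site was present in 6 of 15, in 5 of 16 and in 21.0% of all genes. Of these 4 windows the Syn1 window alone has no GC box; it holds 2 overlapping CRE half-sites on opposite strands. TTCAGCA was added to the search after the Syn1 sequence had been read, and occurs in 2 of the 4 windows (Syn1 and Unc13a), in 4 of 69 members and in 4.62% of all genes. A longer RE1 core, also chosen after seeing the data (TTCAGCA, then 4 free bases, then GGACAG), was found in 0 of 69 members and in 4 genes of the table. Only exact matches were counted, so the search cannot show that an RE1 is absent. In the Syn1 window TTCAGCA and 4 bases are followed by GGTCAG, which differs from GGACAG in a single base. Rest itself was at 178 and 189 CPM in untreated and 211 and 207 CPM in BML-210 libraries. That was a small rise (0.19 on the log2 scale, edgeR adjusted p = 3.88e-05). In a list of 10 genes of REST and its corepressors, 3 were higher, 2 lower and 5 not called (median log2 fold change 0.05). Over all tested genes 22.9% were higher and 23.5% lower. Any part of REST in the falls of neuronal members was not tested.

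The clearest change in a neuronal member was that of Unc13a, which encodes Munc13-1, the main priming factor of synaptic vesicles (ENSMUSG00000034799.16, chromosome 8, 71624417 to 71671757, mm10). Unc13a was at 24.4 and 27.4 CPM in the untreated libraries and at 14.2 and 14.8 CPM in the BML-210 libraries, so both treated libraries lay well below both controls. The log2 fold change was -0.83 ± 0.11 (SE), with an edgeR adjusted p of 1.12e-09. It was called under all 13 alternatives, with a log2 fold change of -0.92 to -0.75. Its exons share 495 bases (3.92% of its exon length) with Colgalt1 on the opposite strand, whose log2 fold change was -0.10. The sources used here do not say how reads in shared stretches were assigned.

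Other Munc13 genes moved in both directions. Unc13d encodes Munc13-4, which acts in the granule release of blood cells and in secretion elsewhere (ENSMUSG00000057948.12, chromosome 11, 116062095 to 116077961). It was at 1.22 and 1.53 CPM in untreated and 3.10 and 2.997 CPM in BML-210 libraries, with no overlap. The rise was 1.16 ± 0.31 on the log2 scale (SE; adjusted p = 0.00165 in edgeR), and it was called under all 13 alternatives (adjusted p of 0.00131 to 0.0433). Unc13b, which encodes Munc13-2, fell from 1.77 and 1.68 CPM to 0.681 and 0.928 CPM (log2 fold change -1.08 ± 0.40, SE; edgeR adjusted p = 0.0225). The Unc13b call ended in DESeq2 (adjusted p = 0.187) and without either untreated replicate (0.143 and 0.0836) or without BML-210 replicate 1 (0.163), in a range of 0.0187 to 0.187. Unc13c had at most 3 counts in each library.

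Per kilobase of exon, the scale on which genes can be compared, Unc13a made up 84.6% and 83.9% of the summed Munc13 level in the untreated libraries and 60.9% and 62.4% in the BML-210 libraries. The share of Unc13d went from 11.4% and 12.6% to 36.0% and 34.1%. Both groups were tight and far apart. The summed level of the 4 genes was 2.29 and 2.59 CPM per kb in untreated and 1.84 and 1.88 CPM per kb in BML-210 libraries. Among the Rim and complexin genes only Rims3 could be tested, and it was not called (log2 fold change -0.88, 95% interval -1.80 to 0.03), with means of 1.15 CPM in untreated and 0.626 CPM in BML-210 libraries.

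**Figure D2:**
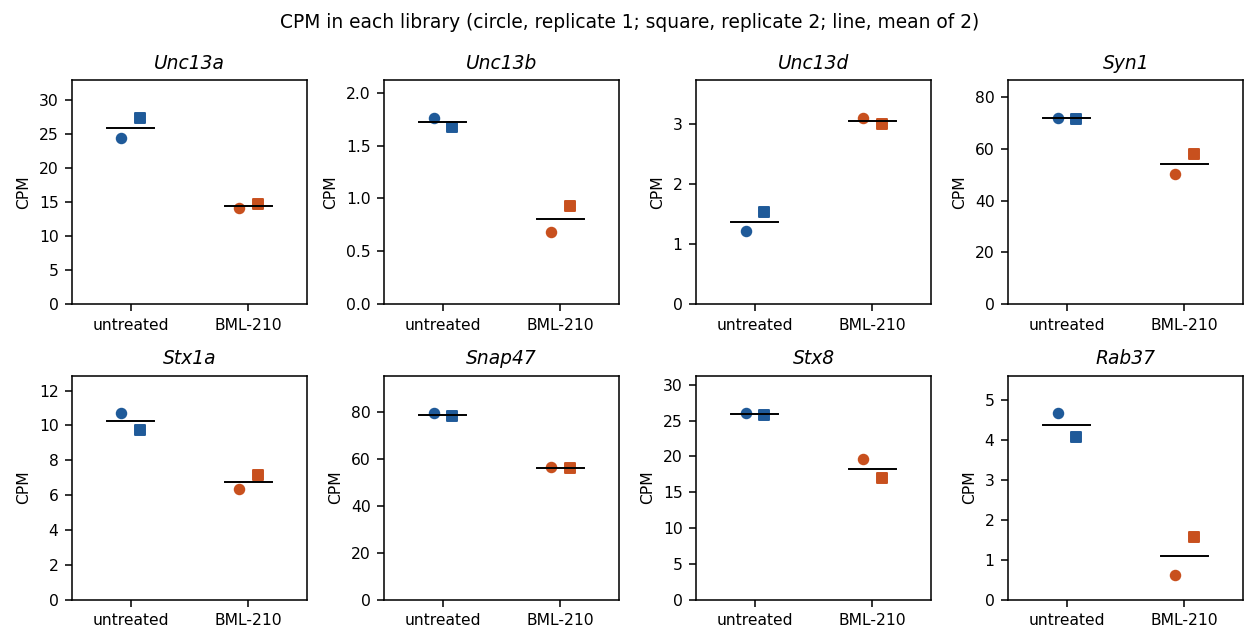
CPM (vertical axis, from 0) in each of the 4 libraries for 8 members; circles are replicate 1, squares replicate 2 and lines the mean of 2. In all 8 the groups do not overlap, and Unc13d alone is higher in BML-210, at 2.997 and 3.10 against 1.22 and 1.53 CPM.

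Syn1, the synapsin that ties synaptic vesicles to each other, was by far the main synapsin transcript, with 99.6% to 100% of the summed synapsin level per kilobase in every library (ENSMUSG00000037217.15, chromosome X, 20860511 to 20921004). It was at 72.1 and 71.5 CPM in untreated and 50.3 and 57.9 CPM in BML-210 libraries. The BML-210 libraries were the lower pair and the less alike. The fall, -0.41 ± 0.06 on the log2 scale (SE; adjusted p = 7.80e-08 in edgeR), was called under all 13 alternatives. Syn2 was below the filter and is named after its counts were seen: 10 and 8 in untreated, 0 and 1 in BML-210 libraries. That is 18 counts against 1, a scaled ratio of 16.2 with an exact 95% counting interval of 2.57 to 677. Without the filter on low counts Syn2 was called (log2 fold change -3.73, edgeR adjusted p = 0.00517). Syn3 had at most 2 counts in any library.

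Of the 17 synaptotagmin rows only Syt2, Syt7, Syt11 and Syt17 could be tested. Syt2, a fast calcium sensor of neurons, was the most abundant on a per-length scale, at 46.4% to 53.4% of the summed synaptotagmin level, followed by Syt11, which lacks calcium binding, at 25.6% to 33.3%. The Syt2 level was 14.4 and 15.4 CPM in untreated and 10.9 and 16.1 CPM in BML-210 libraries, so the groups overlapped. It was not called (log2 fold change -0.13, 95% interval -0.39 to 0.13), except without BML-210 replicate 2 (-0.45, edgeR adjusted p = 0.0173), in a range of 0.0173 to 0.698 over the alternatives. Syt11 (0.02, interval -0.36 to 0.41) and the lysosomal sensor Syt7 (-0.30, interval -0.95 to 0.35) were not called either. Syt17 was lower at a low level, 15 and 17 counts against 6 and 4 (log2 fold change -1.51 ± 0.54, SE; edgeR adjusted p = 0.0183). The Syt17 call ended when any single library was left out (adjusted p of 0.0611 to 0.21) and in DESeq2 (0.17). Of the Sytl genes, which link Rab27 to secretory granules, only Sytl3 was tested. It had 10 and 1 counts in untreated and 17 and 11 in BML-210 libraries, and its log2 fold change of 1.48 (edgeR adjusted p = 0.0282) dropped to 0.75 (adjusted p = 0.423) without untreated replicate 2. It was also not called without BML-210 replicate 1 (0.323) or in DESeq2 (0.208).

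Syntaxins were expressed broadly: 13 of 15 were tested, 5 lower, 1 higher and 7 not called. The share called was 46.2%, close to the 46.4% of all tested genes. By direction it was 38.5% lower and 7.69% higher, against 23.5% and 22.9% of all tested genes. Stx1a, the syntaxin of synapses and endocrine cells, fell most (ENSMUSG00000007207.10, chromosome 5, 135023482 to 135051100). It was at 10.7 and 9.76 CPM in untreated and 6.36 and 7.14 CPM in BML-210 libraries, a separation of the groups wider than the spread within either. The fall was -0.60 ± 0.16 on the log2 scale (SE; adjusted p = 0.00109 in edgeR), with an adjusted p of 0.000601 to 0.0392 over 13 alternatives. Its paralogues at the cell surface did not follow within the precision of the test: Stx2 had a log2 fold change of 0.02 (95% interval -0.23 to 0.26), Stx3 one of -0.23 (-0.58 to 0.11) and Stx4a one of 0.15 (-0.12 to 0.42), and none was called. The Stx1a share of the summed level of these syntaxins per kilobase went from 32.4% and 28.9% to 20.1% and 23.7%.

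The other syntaxins that fell act on endosomes, lysosomes and the Golgi or endoplasmic reticulum. Stx8, a late endosome syntaxin, fell from 26.0 and 25.7 to 19.6 and 16.9 CPM (log2 fold change -0.51 ± 0.10, SE; edgeR adjusted p = 2.27e-05), with no overlap of the groups and a call under all 13 alternatives. Its partner Stx7 (-0.16, adjusted p = 0.0311) and the trans-Golgi syntaxin Stx16 (-0.12, adjusted p = 0.0337) passed only just. Those 2 calls were lost in 7 and 6 of 13 alternatives: both in DESeq2 (adjusted p = 0.239 for Stx7 and 0.236 for Stx16), that of Stx7 without any single library (edgeR adjusted p of 0.0518 to 0.157), and that of Stx16 without untreated replicate 1 (0.139) or either BML-210 replicate (0.0632 and 0.221). Stx18, of the endoplasmic reticulum, was at 21.0 and 20.3 CPM in untreated and 14.8 and 17.8 CPM in BML-210 libraries (-0.34, edgeR adjusted p = 0.00797). It was not called without BML-210 replicate 1 (0.179) or in DESeq2 (0.111). Stx6, of the trans-Golgi network and early endosomes, went the other way, from 76.5 and 71.7 to 87.2 and 89.2 CPM (0.25 ± 0.05, SE; edgeR adjusted p = 7.37e-05), and was called under all 13 alternatives. The autophagosome syntaxin Stx17 (0.14), Stx5a (-0.03), Stx11 (0.06) and Stx12 (-0.07) were not called.

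**Figure D3:**
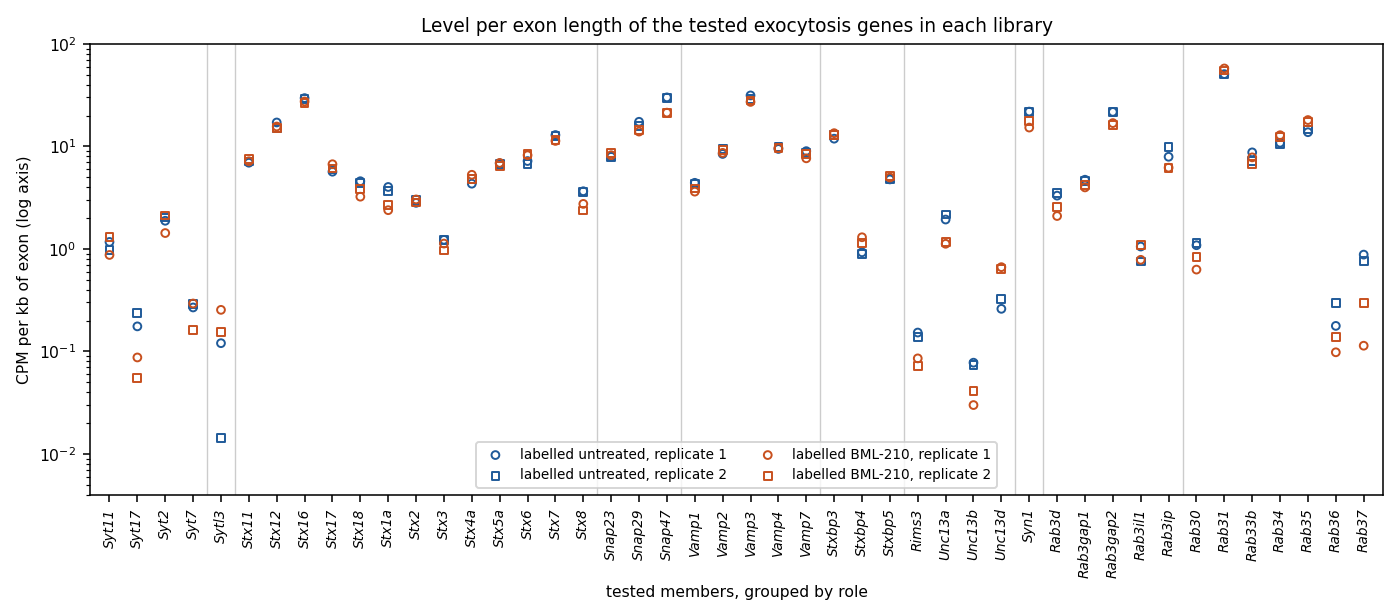
CPM per kb of exon (log axis) in each library for 46 of the 47 tested members, by role; blue is untreated, orange BML-210, circles replicate 1 and squares replicate 2. Mean levels run from 0.0555 CPM per kb for Unc13b to 53.3 CPM per kb for Rab31, and for most genes the 4 points lie close together.

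Among the SNAP genes, which give the SNARE bundle its other helices, Snap47 was the most abundant per kilobase and fell most (ENSMUSG00000009894.15, chromosome 11, 59407134 to 59451186). Snap47 was at 79.7 and 78.4 CPM in untreated and 56.5 and 56.0 CPM in BML-210 libraries. The 2 libraries of each group were almost equal, and the groups were far apart (log2 fold change -0.49 ± 0.06, SE; edgeR adjusted p = 6.19e-11, called under all 13 alternatives). Its exons share 307 bases (11.6% of its exon length) with Jmjd4 on the opposite strand, which rose (0.36). Snap29, which serves autophagosome fusion, went from 59.9 and 54.5 to 48.1 and 49.6 CPM (-0.23, edgeR adjusted p = 0.00191). It was not called without untreated replicate 1 (0.104) or in DESeq2 (0.07). Snap23, the usual surface SNAP protein outside neurons, was at 34.0 and 33.8 against 35.2 and 37.3 CPM and was not called (0.10, 95% interval -0.05 to 0.25). Its share of the summed SNAP level per kilobase went from 14.3% and 14.8% to 18.9% and 19.6%, while that sum went from 55.4 and 53.2 to 43.5 and 44.2 CPM per kb.

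Of the 5 VAMP genes tested, 2 were lower (40%, against 23.5% of all tested genes), and no log2 fold change was beyond -0.23. Vamp3, the recycling endosome form, held 47.2% to 50.1% of the summed VAMP level per kilobase, and Vamp8 had 1 count in all. Vamp1, mostly neuronal, went from 44.9 and 44.2 to 36.8 and 39.4 CPM (log2 fold change -0.23 ± 0.07, SE; edgeR adjusted p = 0.00652). The Vamp1 call ended without BML-210 replicate 1 (adjusted p = 0.1) and in DESeq2 (0.115). Vamp3 was at 90.7 and 83.6 against 78.4 and 80.8 CPM (-0.13, edgeR adjusted p = 0.0322), a call lost in 6 of 13 alternatives (up to 0.402), untreated replicate 1 and either BML-210 replicate left out among them. Vamp2, the synaptic form, was not called, at 32.1 and 36.2 against 32.9 and 35.0 CPM (-0.00180, 95% interval -0.16 to 0.15). Vamp4 (0.00383, interval -0.13 to 0.14) and the lysosomal Vamp7 (-0.13, interval -0.32 to 0.07) were not called.

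Of the 8 genes named for binding syntaxins, 4 were tested. The ubiquitous Stxbp3 (0.09, 95% interval -0.02 to 0.20) and the tomosyn gene Stxbp5, whose product competes with VAMP proteins (0.08, interval -0.02 to 0.18), were not called. Stxbp4, a binder of Stx4a, rose from 10.95 and 10.6 to 15.4 and 13.4 CPM (0.42 ± 0.13, SE; edgeR adjusted p = 0.00642), but not without BML-210 replicate 1 (0.119) or in DESeq2 (0.0899).

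Rab3d was the only Rab3 GTPase expressed above a few reads. It was tested with genes named after Rab3, not all of which act on Rab3. Of these 5 genes, Rab3d included, 4 were lower and 1 was not called, against 23.5% lower over all tested genes. Rab3d, which sits on secretory granules, was at 13.9 and 14.7 CPM in untreated and 8.78 and 10.7 CPM in BML-210 libraries (log2 fold change -0.55 ± 0.13, SE; edgeR adjusted p = 0.000545). Rab3gap2, a subunit of the complex that acts on Rab3 and Rab18, was at 234 and 235 CPM in untreated and 182 and 175 CPM in BML-210 libraries (-0.39 ± 0.04, SE; edgeR adjusted p = 9.87e-14). It had the smallest adjusted p of all members (ENSMUSG00000039318.12, chromosome 1, 185204117 to 185286759). Its exons share 2034 bases (18.8% of its exon length) with Iars2 on the opposite strand, which was not called (-0.08). The catalytic subunit gene Rab3gap1 went from 55.5 and 53.9 to 46.7 and 48.9 CPM (-0.20, edgeR adjusted p = 0.00863). Its call ended without untreated replicate 1 (0.0729), without BML-210 replicate 1 (0.0943) and in DESeq2 (0.135). Rab3ip, known as Rabin8 and an activator of Rab8, fell from 25.1 and 31.3 to 19.7 and 19.4 CPM (-0.52 ± 0.10, SE; edgeR adjusted p = 1.32e-05), and its log2 fold change was -0.36 without untreated replicate 2. Its relative Rab3il1 was not called (0.05, 95% interval -0.32 to 0.41).

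Among the 12 rows from Rab30 to Rab39, 7 were tested, 3 higher and 2 lower. These are 42.9% and 28.6%, against 22.9% and 23.5% of all tested genes. Rab37, a GTPase of mast cell and other secretory granules, had the largest fall of all tested members (ENSMUSG00000020732.13, chromosome 11, 115091431 to 115162236). It was at 4.69 and 4.08 CPM in untreated and 0.606 and 1.57 CPM in BML-210 libraries, a 3.98-fold fall (log2 fold change -1.99 ± 0.31, SE; edgeR adjusted p = 2.27e-07). Both BML-210 libraries were far below the controls, though unlike each other: the log2 fold change was -1.48 without BML-210 replicate 1 and -2.84 without BML-210 replicate 2. The Rab37 call held under all 13 alternatives, while of the 6 mast cell and granulocyte markers, summed to 1.77 to 2.19 CPM in untreated and 0.714 to 1.21 CPM in BML-210 libraries, Cpa3, Mcpt4 and S100a9 were at 0. The one marker tested, S100a8, was at 1.16 and 1.68 CPM in untreated and 0.833 and 0.571 CPM in BML-210 libraries and was not called (-0.99, edgeR adjusted p = 0.0606). The part of such cells in the fall of Rab37 was not tested. The Golgi gene Rab30 fell from 10.5 and 10.9 to 6.06 and 8.06 CPM (-0.59, edgeR adjusted p = 0.0013), but not without BML-210 replicate 1 (0.0705). Rab35, of the recycling route, rose from 38.8 and 41.2 to 50.9 and 49.1 CPM (0.33, edgeR adjusted p = 5.39e-05). Rab31 rose from 193 and 191 to 219 and 210 CPM (0.16, edgeR adjusted p = 0.000376), and Rab34 also rose (0.23, edgeR adjusted p = 0.0226, lost without untreated replicate 2, without BML-210 replicate 1 and in DESeq2). Rab33b (-0.13) and Rab36 (-0.96, edgeR adjusted p = 0.0677) were not called, although Rab33b was without untreated replicate 2 (-0.26, adjusted p = 0.0294). Without these 12 rows 18 members were lower and 4 higher of 40 tested.

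**Figure D4:**
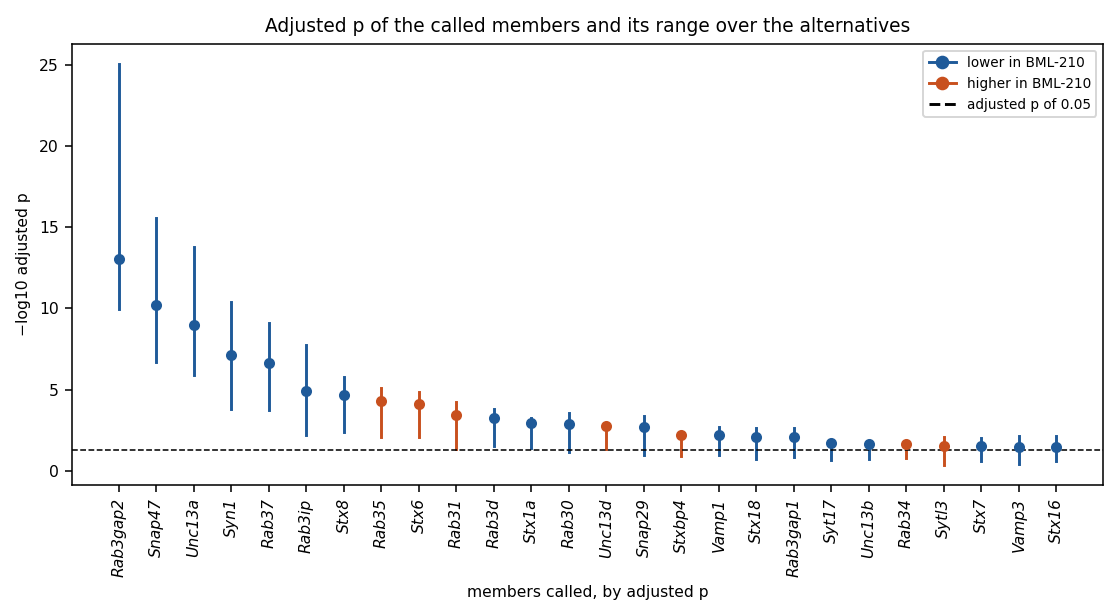
Adjusted p of 26 of the 27 called members (points, as −log10, so that higher is smaller), with bars from the largest to the smallest adjusted p over the alternatives, in order of adjusted p; the dashed line is 0.05. The whole bar lies above the line for 13 members, 9 lower and 4 higher.

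Related genes outside the name rule were counted from lists written with earlier results of these data known. Among 23 other SNAREs, disassembly factors and SM proteins, 9 were lower and 5 higher (median log2 fold change -0.08), including the Golgi SNAREs Sec22b (-0.39) and Bet1 (-0.47), which fell, and the SM protein gene Scfd1, which rose (0.45). In a list of 9 HOPS and CORVET genes and partners, which serve the tethering of endosomes and lysosomes, 6 were lower and 0 higher (median -0.17, with 0 higher at an unadjusted p under 0.05, in DESeq2 and in limma-voom), with the subunit genes Vps11 at -0.68 and Vps41 at -0.34. The 6 include Rab7 (-0.17) and Plekhm1 (-0.26), a GTPase and an adaptor that work with the complex and are not its subunits. Vps33a, an SM protein that is a subunit, was counted in the SNARE and SM protein list instead. It was not called (-0.11, edgeR adjusted p = 0.202). Plekhm1 and Vps33a are named after their values were seen. The exocyst, which tethers vesicles to the surface, had 2 lower and 2 higher of 9. Of 10 tested genes of the Rab27 and ferlin list 4 were lower and 1 higher, Rab11a among the lower (-0.43). These counts stand against 23.5% lower and 22.9% higher over all tested genes.

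In the list of active zone and synaptic vesicle genes 20 of 40 were tested, 8 lower and 4 higher (median -0.07). These are 40% and 20%, against 23.5% and 22.9% of all tested genes. Slc17a7, the vesicular glutamate transporter gene, fell from 17.9 and 20.2 to 1.82 and 2.498 CPM (log2 fold change -3.13, edgeR adjusted p = 1.24e-22). Dmxl2 (-1.33) and the vesicle protein gene Syngr2 (-0.34) also fell. The active zone scaffold gene Bsn (0.46) and Tspoap1 (0.65), whose product binds Rim proteins, rose, so this list did not move one way. Of 10 tested voltage-gated calcium channel genes 6 were lower and 2 higher (median -0.61). Of those 6, 3 fell 2-fold or more, as did 626 of all 14455 tested genes. Cacnb3 (-0.80 on the log2 scale) and Cacna1e (-0.42) fell by less, and Cacna1c rose (0.68). Of the dense-core vesicle cargo genes only Cpe (-0.75) and Vgf (0.70) could be tested, and they moved in opposite directions.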

How the data were processed

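The authors deposited 1 table of raw read counts per gene for 4 libraries of total RNA, with exonic length per the file headers. Build mm10 and the tools bcl2fastq, STAR 2.5, Subread 1.5.1 with featureCounts, and edgeR 3.20.8 are named per the submitters' processing notes. Counting settings (strand, multi-mapping, overlap) were not given in these sources, and 11 of 47 tested members have exons that overlap another gene. Here, genes kept by filterByExpr (14455 of 56350) were fitted in R 4.3.3 with edgeR 4.0.16 (TMM, glmQLFit with robust=TRUE, glmQLFTest, group only, 2 residual degrees of freedom), with Benjamini-Hochberg adjustment over all tested genes. CPM use TMM-scaled library sizes. The SE is the log2 fold change over the square root of F, and 95% intervals are 1.96 SE, both approximate. Intervals and floors cover counting error only where they come from counts, since reads carry no molecular identifiers.

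Counts of the 2 libraries of a group differed beyond sampling noise (chi-square per degree of freedom 2.89 for untreated, 1.8 for BML-210). That extra spread was small, with a biological coefficient of variation of 2.49% in the edgeR fit, and it may be technical. In simulated data for this comparison (14168 genes tested), 63.2% of 95 genes changed by 0.5 (log2) and 82.4% of 102 changed by 1 were recovered, with 13 of 157 calls false. Far fewer genes were changed there than the 46.4% called in the real data, so these rates need not hold for the real data.

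The members and lists were chosen with earlier results of these data known. Any called member could be named; full values per library were set for those with a mean of at least 1 CPM and either a change of at least 0.8 (log2) or one of the 4 smallest adjusted p of their role, and fold changes for their tested paralogues. Of each other list, up to 3 called genes with the smallest adjusted p and up to 2 against the list's median were named. Untested members, Syt2 and members under 1 CPM were given in full after their values were seen. Alternatives were RLE, upper-quartile and no factors, no filter, a mean of at least 1 CPM, a replicate block, no robust estimation, limma-voom (limma 3.58.1), DESeq2 1.42.0 and each library left out. Chosen after seeing the data were leaving out Rab30 to Rab39 and leaving out overlapping members. Single members whose values are not reported here stay in the counts and sums and are not drawn.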

Additional observations from a re-analysis of the deposited data

How the results depend on the processing

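All 27 called members kept their direction under the 13 alternatives run over all genes (12 for Syt17 and Sytl3, which a mean of at least 1 CPM removes), and 13 kept their call in each. With DESeq2, 4335 genes and 14 members were called, 4 higher and 10 lower, with 3 neuronal and 5 ubiquitous members lower; the 14 are among the 27, and the cause of the lower number was not tested. Leaving out 1 library left 5618 to 5869 genes and 14 to 24 members called, 4 to 7 higher and 10 to 18 lower, with 3 to 6 neuronal and 5 to 11 ubiquitous members lower; here an arm holds 1 library, assumed to vary like the other group. The lowest counts of members were without BML-210 replicate 1. Without Rab30 to Rab39 4 members were higher, and without members that overlap another gene 3 neuronal and 7 ubiquitous members were lower, since fewer genes are counted; both were chosen after seeing the data.

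With the replicate number as a block, 6847 genes and 27 members were called (20 lower, 7 higher). The numbers are not known to pair the libraries: same-numbered deviations from the group means had a correlation of 0.0155 over genes, with 2 pairs.

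Signs changed only for members that were not called. Vamp2 turned to 0.0010 with RLE, 0.014 with library size only, 0.0026 without a filter and 0.0031 in limma-voom. With upper-quartile factors Vamp4 turned to -0.025, Syt11 to -0.0045 and Stx2 to -0.010, and Vamp4 to -0.0021 under the 1 CPM minimum. With 1 library left out the log2 fold change ran from -0.22 to 0.32 for Rab3il1, -0.26 to 0.025 for Rab33b, -0.093 to 0.0805 for Vamp2, -0.031 to 0.032 for Vamp4, -0.31 to 0.28 for Syt11, -0.45 to 0.11 for Syt2, -0.78 to 0.070 for Syt7, -0.16 to 0.032 for Stx12, -0.034 to 0.069 for Stx2 and -0.076 to 0.023 for Stx5a. The 50 members with too few counts to be tested, 12 of them at 0 in all libraries, have no fold change in the main fit. Of these, Syn2 was called without the filter on low counts.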
